A study of Mus musculus with 36 samples.

Results

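RNA levels in LPS-treated RAW 264.7 cells were compared between the highest dose of melatonin, 1 mM, and the dose 10 times lower, 100 µM. RAW 264.7 is an established mouse macrophage-like cell line. The comparison was defined by treatment and not by any measured value: it takes 6 of the 36 libraries of the series, 3 with LPS and 1 mM melatonin against 3 with LPS and 100 µM melatonin, and covers every gene. Both groups received 10 µg/mL LPS, had melatonin added 30 min before it, and were collected after 12 h of treatment. The remaining 30 libraries, 3 in each of 10 groups, are of solvent alone, LPS alone, melatonin alone at 0.1, 1, 10 or 100 µM or 1 mM, and LPS with 0.1, 1 or 10 µM melatonin. The question put by the comparison is which changes in RNA appear only when melatonin is raised to 1 mM. Whether replicate libraries stem from different cultures is not stated in the labels, and the p-values then reflect only how these libraries vary, possibly for technical reasons.

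LPS, the main surface lipid of Gram-negative bacteria, is sensed by Toll-like receptor 4 with its co-receptor CD14. Signalling through MyD88 and TRIF then switches on NF-kB, MAP kinases and interferon regulatory factors, which induce cytokines, chemokines, the prostaglandin and nitric oxide synthases, and antioxidant genes. Melatonin is an indoleamine hormone that acts through the receptors MT1 and MT2 and is also known as an antioxidant. In these 36 libraries the genes of those receptors were near the limit of detection, with 1 count for Mtnr1a and 2 counts for Mtnr1b in total, and neither was tested.

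The 100 µM libraries held 6525675 to 6837402 counts and the 1 mM libraries 4203313 to 6472789. The lowest total was that of 1 mM replicate 3, and its TMM scaling factor was 1.194, where the other 1 mM libraries had 1.055 and 1.075. Levels are given as CPM, read counts relative to the library total after TMM scaling, and fold changes are log2 of 1 mM over 100 µM from edgeR's quasi-likelihood test, with p-values adjusted over all 16988 tested genes and a threshold of 0.05. Of the 9 macrophage markers, none was at 0 in these 6 libraries, and their summed level was 10410 to 10820 CPM at 100 µM and 3540 to 4371 CPM at 1 mM. Most of that difference was in Lyz2, described with the macrophage genes. All 5 T cell markers were at 0, and the summed levels of neutrophil, fibroblast, epithelial, endothelial and dendritic cell markers were at most 6.59 CPM. Among the libraries without LPS, those labelled melatonin 1 mM replicate 3 and melatonin 1 µM replicate 1 went against their groups. Lyz2 stood at 1514, 1472 and 5872 CPM in the libraries labelled 1 mM without LPS and at 1342, 6333 and 6428 in those labelled 1 µM, and a principal component separated the same libraries from their groups. Their labels are therefore in doubt, and the main counts of comparisons that contain them are given with and without both. They also enter the spread shared by all tests, that of 1 mM against 100 µM with LPS included. In bulk samples fewer cells of a type and less RNA per cell cannot be told apart.

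Raising melatonin from 100 µM to 1 mM in the presence of LPS changed 845 of 16988 tested genes (4.97%), of which 640 fell (3.77%) and 205 rose (1.21%). Of the genes that fell, 213 did so at least 2-fold, and of those that rose, 112. The median log2 fold change over all tested genes was 0.03. All 3 libraries of one group lay above all 3 of the other for 3335 genes (19.6%), and only a part of these passed the test. None of the lower 10-fold steps with LPS came near this number: 0 genes passed between 10 and 100 µM. Between 1 and 10 µM 2 genes passed, both lower (0.0118%), and between 0.1 and 1 µM 15 genes (0.0883%), 14 higher (0.0824%) and 1 lower (0.00589%). Against LPS alone, which brings in the same libraries, 100 µM changed 224 genes (1.32%), 118 higher (0.695%) and 106 lower (0.624%), and 1 mM changed 1307 (7.69%), 488 higher (2.87%) and 819 lower (4.82%). At an unadjusted p under 0.05 the step from 10 to 100 µM had 851 genes and the step from 100 µM to 1 mM 2687, and DESeq2 called 4 higher and 2 lower at the former. Without 100 µM replicate 1, the number that rose dropped to 84 and the number that fell to 364, and without 100 µM replicate 2, 111 rose. Protein-coding genes made up 500 of the genes that fell and 178 of those that rose. Another 122 and 15 were processed pseudogenes, whose reads cannot be separated with certainty from those of their parent genes.

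**Figure D1:**
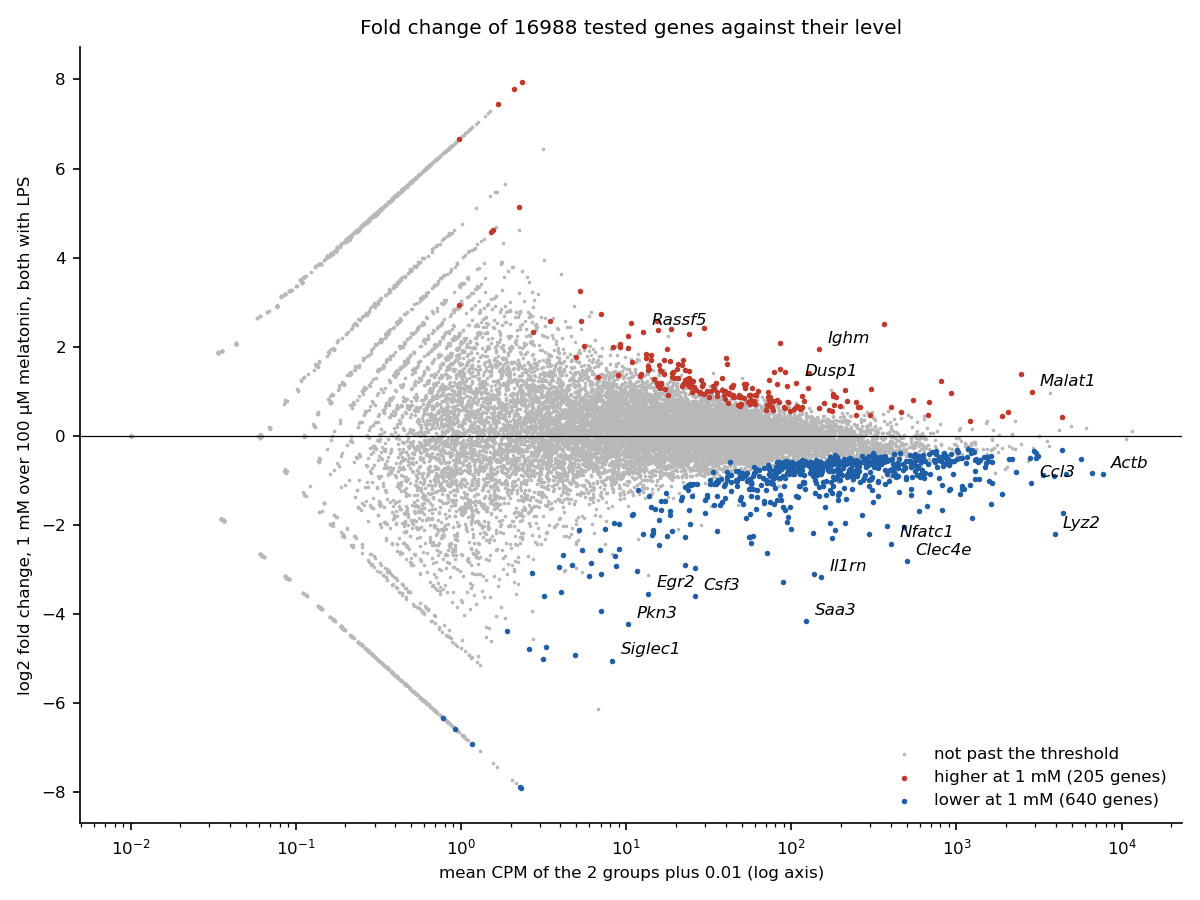
Log2 fold change (1 mM over 100 µM melatonin, both with LPS) of each tested gene against its mean CPM on a log axis. Each point is 1 gene, blue where it fell (640), red where it rose (205) and grey where it did not pass the threshold. The outer diagonals at low level are genes with 0 counts in 1 group, whose fitted value depends on the prior count. Saa3, Clec4e and Lyz2 fell at high levels, and few abundant genes rose.

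The genes that fell were often those that LPS raises, and the genes that rose were often those that LPS lowers. The response to LPS was taken from the libraries of LPS alone and of solvent, none of which enters the comparison of 1 mM with 100 µM. Of 1441 genes raised by LPS (8.48% of those tested), 321 (22.28%) fell from 100 µM to 1 mM and 11 rose, with a median log2 fold change of -0.31. Among the 148 genes raised at least 8-fold by LPS, 46 (31.08%) fell and 0 rose, with a median of -1.04. Of 1377 genes lowered by LPS (8.11%), 86 (6.245%) rose and 32 fell, with a median of 0.15. In the other direction, 50.16% of the genes that fell were raised by LPS, and 41.95% of the genes that rose were lowered by LPS. The remaining 287 genes that fell and 108 that rose were not called for LPS alone.

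**Figure D2:**
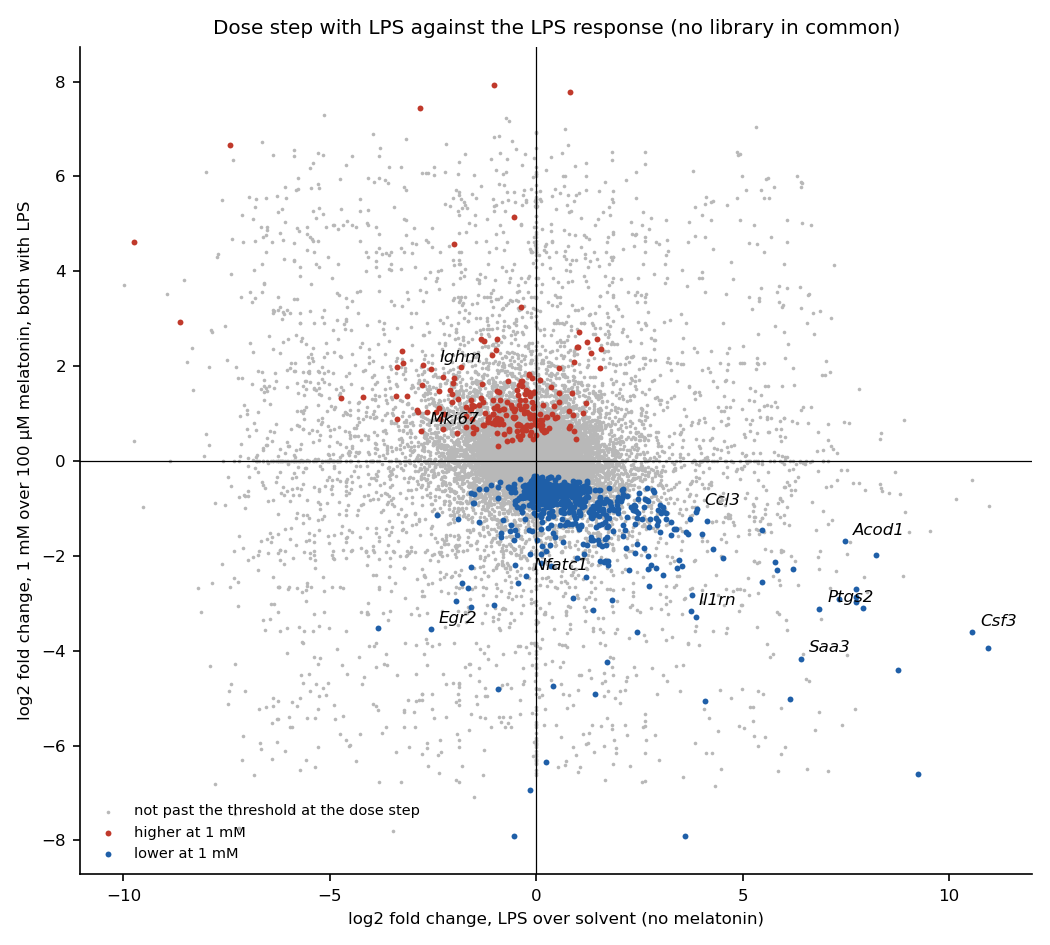
Log2 fold change from 100 µM to 1 mM melatonin with LPS (vertical axis) against the log2 fold change of LPS over solvent (horizontal axis), 1 point per tested gene. Blue points fell and red points rose from 100 µM to 1 mM. The 2 axes have no library in common. Many blue points lie to the right, among genes raised by LPS, with Saa3, Ptgs2 and Csf3 at the lower right, and Ighm and Mki67 are among the red points at the left.

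Genes of the acute phase and of prostaglandin synthesis were among the genes that fell most. Saa3, which encodes the acute-phase protein serum amyloid A3 (chr7:46711998-46715700, minus strand, mm10), stood at 236, 223 and 242 CPM in the 100 µM libraries and 8.28, 12.1 and 19.2 in the 1 mM libraries. The groups lay more than 10-fold apart, and the 1 mM libraries came close to the solvent mean of 6.66 CPM (log2 fold change -4.17 ± 0.24 (SE), adjusted p = 1.4e-18). Ptgs2, which encodes the prostaglandin synthase COX-2 (chr1:150100031-150108227, plus strand), stood at 228, 241 and 268 CPM in the 100 µM libraries and 16.4, 22.6 and 47.1 in the 1 mM libraries. All 1 mM libraries were far below the lowest 100 µM library, though still above the solvent mean of 7.15 CPM (log2 fold change -3.12 ± 0.47 (SE), adjusted p = 1.0e-04). Lcn2, which encodes a protein that binds bacterial iron carriers (chr2:32384633-32388252, minus strand), stood at 14.7, 10.6 and 14.4 CPM in the 100 µM libraries and 1.69, 0.576 and 0.2 in the 1 mM libraries (log2 fold change -3.94 ± 0.64 (SE), adjusted p = 5.2e-05). Clec4e, the gene of the glycolipid receptor Mincle (chr6:123281789-123289870, minus strand), stood at 868, 862 and 921 CPM in the 100 µM libraries and 122, 113 and 139.5 in the 1 mM libraries (log2 fold change -2.82 ± 0.17 (SE), adjusted p = 1.4e-18). At 100 µM Clec4e was still close to the level of LPS alone, 979 CPM.

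The promoters of these 4 genes are shown because each held the letters TTGCNNAA, on either strand, the core recognised by C/EBP factors, which are known to act on acute-phase genes. In the genes' RefSeq promoters (250 bases before the start, build GRCm38.p6, printed 5′ to 3′ on the gene's strand) the matches are in capitals. The start is that of RefSeq, and the Lcn2 window lies inside the gene coordinates given above, which have another start. The same letters occur in 9.56% of all 32851 promoters of that length in the table. Of the 46 genes raised at least 8-fold by LPS that fell, only 30 had a promoter in the table, so no share was compared. Among these 30, 9 held the C/EBP letters, and 8 held a core for NF-kB that was also searched for.
Saa3 promoter, chr7:46715677-46715926, minus strand: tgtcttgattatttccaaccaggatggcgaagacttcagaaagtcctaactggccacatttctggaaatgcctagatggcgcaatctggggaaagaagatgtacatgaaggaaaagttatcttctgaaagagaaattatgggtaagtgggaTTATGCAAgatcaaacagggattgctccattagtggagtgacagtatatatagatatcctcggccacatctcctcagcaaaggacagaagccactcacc
Lcn2 promoter, chr2:32387740-32387989, minus strand: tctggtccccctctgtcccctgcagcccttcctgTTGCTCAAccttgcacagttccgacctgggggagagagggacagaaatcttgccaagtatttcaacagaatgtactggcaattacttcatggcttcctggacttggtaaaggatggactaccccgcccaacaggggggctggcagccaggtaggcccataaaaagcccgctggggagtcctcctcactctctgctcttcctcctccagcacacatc
Ptgs2 promoter, chr1:150099781-150100030, plus strand: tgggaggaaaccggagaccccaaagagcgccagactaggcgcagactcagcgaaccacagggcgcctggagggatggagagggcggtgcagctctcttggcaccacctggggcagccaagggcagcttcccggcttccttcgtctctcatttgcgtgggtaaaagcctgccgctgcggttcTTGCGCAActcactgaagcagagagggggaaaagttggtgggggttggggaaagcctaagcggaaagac
Clec4e promoter, chr6:123289872-123290121, minus strand: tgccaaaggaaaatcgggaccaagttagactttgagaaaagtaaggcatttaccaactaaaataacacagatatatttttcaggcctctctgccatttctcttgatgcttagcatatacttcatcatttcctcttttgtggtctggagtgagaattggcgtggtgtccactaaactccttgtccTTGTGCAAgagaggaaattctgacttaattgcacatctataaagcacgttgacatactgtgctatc
Cebpb, the gene of one factor of this family, stood at 126, 134 and 112 CPM in the 100 µM libraries and 80.5, 52.8 and 71.8 in the 1 mM libraries (log2 fold change -0.86 ± 0.22 (SE), adjusted p = 0.0099). Cebpb was below the threshold in a fit of the 6 libraries alone. Cebpb (1 mM replicate 2 or 100 µM replicate 2) dropped below the threshold when a library named in parentheses was left out.

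Several cytokine and chemokine genes fell, and none of those tested rose. Of 25 tested, 9 fell (against 3.77% of all genes) and 0 rose, with a median log2 fold change of -0.94, or -0.95 with genes at 0 counts set to their bound. The other 7 of the 32 on the list were too low to test. Among genes too low to test, Cxcl1 had 44 counts over the 1 mM libraries and 0 at 100 µM, and Il10 had 5 and 0. Ccl7 and Csf2 went the other way, with 0 counts at 1 mM and 9 and 4 at 100 µM. Csf3, which encodes granulocyte colony-stimulating factor (chr11:98701263-98703629, plus strand), stood at 45.3, 49.7 and 50.5 CPM in the 100 µM libraries and 6.44, 0.719 and 4.99 in the 1 mM libraries. The 1 mM libraries varied widely, but all were far below the 100 µM group (log2 fold change -3.60 ± 0.36 (SE), adjusted p = 1.3e-09). Il1rn, the gene of the interleukin-1 receptor antagonist (chr2:24336853-24351494, plus strand), stood at 333, 265 and 222 CPM in the 100 µM libraries and 30.6, 25.5 and 35.1 in the 1 mM libraries, where the 1 mM libraries lay below the solvent mean of 46.5 (log2 fold change -3.17 ± 0.48 (SE), adjusted p = 1.4e-04). Il1b stood at 41.7, 46.7 and 51 CPM in the 100 µM libraries and 1.69, 5.75 and 10.8 in the 1 mM libraries (log2 fold change -2.97 ± 0.67 (SE), adjusted p = 0.0072). In none of these 3 genes did the groups overlap. The call of Il1b was lost in DESeq2.

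Abundant members of the list had smaller fold changes. Ccl3, a macrophage chemokine, stood at 3840, 3605 and 3974 CPM in the 100 µM libraries and 1729, 1570 and 2143 in the 1 mM libraries (log2 fold change -1.07 ± 0.11 (SE), adjusted p = 7.5e-10), so every 1 mM library still exceeded the solvent mean of 382 CPM. Tnf stood at 1082, 1004 and 973 CPM in the 100 µM libraries and 578, 545 and 834 in the 1 mM libraries. The groups did not overlap, and replicate 3 was the highest of the 1 mM libraries (log2 fold change -0.64 ± 0.13 (SE), adjusted p = 0.0011). Cxcl16, Cxcl2 and Ccl9 fell, with log2 fold changes of -1.36, -1.27 and -0.96. Ccl4 and Ccl5 did not pass: their log2 fold changes were -0.19 (95% interval -0.44 to 0.06) and 0.44 (-0.24 to 1.12). Il6 had 0 counts in all 1 mM libraries and 35 counts at 100 µM, where 1 library was also at 0, so the ratio of 100 µM to 1 mM was at least 11.3 against a floor of 3 counts over the 3 libraries. Ccl9 and Tnf were below the threshold in a fit of the 6 libraries alone. Il6 (1 mM replicates 1, 2 or 3 or 100 µM replicates 1 or 3), Cxcl2 (1 mM replicate 2) and Cxcl16 (1 mM replicate 3 or 100 µM replicate 2) dropped below the threshold when a library named in parentheses was left out. The call of Il6 was lost with no low-count filter and with the replicate block.

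**Figure D3:**
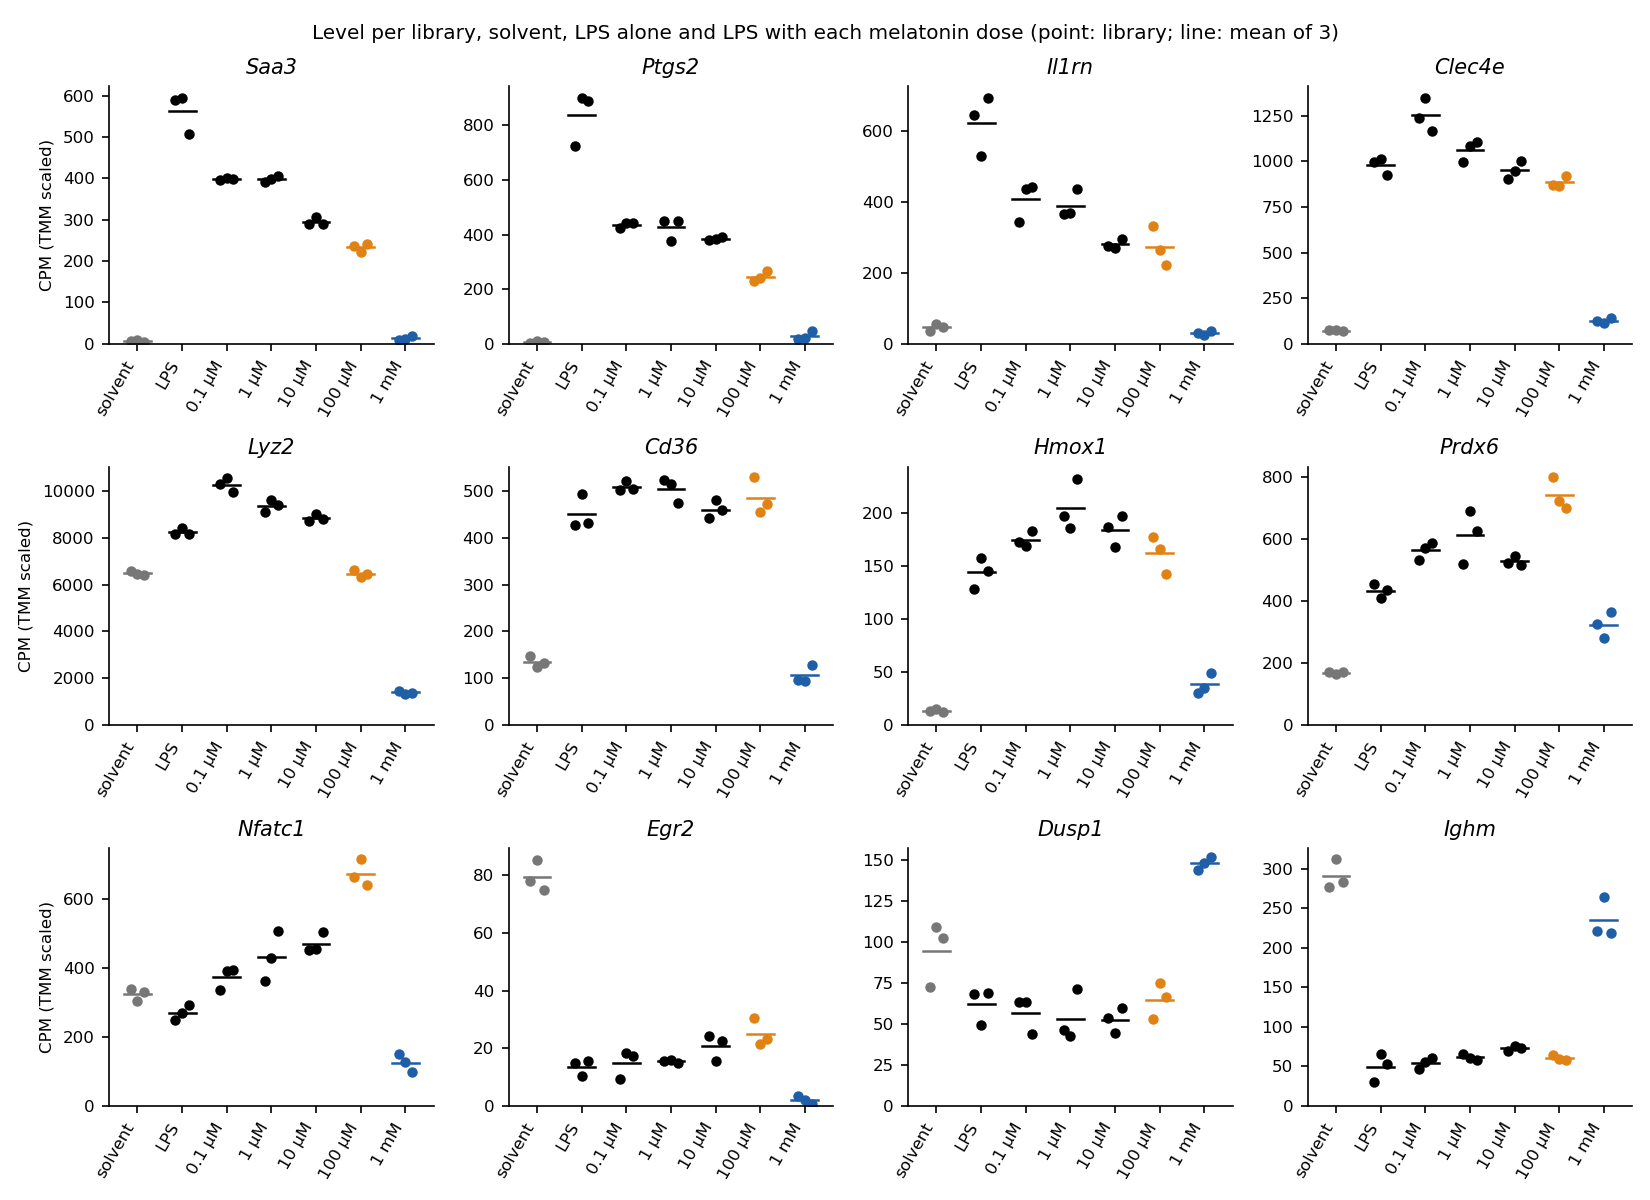
CPM of 12 genes in each library of solvent, LPS alone and LPS with melatonin at 0.1 µM to 1 mM (points, 3 per group, with a line at the mean); orange marks 100 µM and blue 1 mM. Saa3 and Ptgs2 step down over the doses, Clec4e, Cd36 and Hmox1 drop at 1 mM, Nfatc1 and Prdx6 are highest at 100 µM and then drop, and Dusp1 and Ighm are highest at 1 mM among the groups with LPS.

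Inflammatory enzymes and effectors had the lowest median of all 33 lists, a log2 fold change of -1.58. Of 20 tested, 10 fell (50%, against 3.77% of all genes) and 1 rose (5%, against 1.21%). Nos2, which encodes the inducible nitric oxide synthase, stood at 12.8, 17 and 7.89 CPM in the 100 µM libraries and 2.6, 0 and 1.8 in the 1 mM libraries (log2 fold change -3.10 ± 0.69 (SE), adjusted p = 0.0029). Acod1, whose enzyme makes itaconate, stood at 892, 912 and 920.4 CPM in the 100 µM libraries and 209, 207 and 431 in the 1 mM libraries. All 1 mM libraries were below all 100 µM libraries, with replicate 3 the highest of them (log2 fold change -1.69 ± 0.36 (SE), adjusted p = 0.0046). Cybb, the catalytic subunit of the phagocyte NADPH oxidase, stood at 1196, 1247 and 1280 CPM in the 100 µM libraries and 341, 329 and 503 in the 1 mM libraries (log2 fold change -1.67 ± 0.25 (SE), adjusted p = 7.6e-05). Sod2, the mitochondrial superoxide dismutase, stood at 469.5, 466 and 442 CPM in the 100 µM libraries and 161, 138 and 189.6 in the 1 mM libraries (log2 fold change -1.50 ± 0.14 (SE), adjusted p = 5.5e-11). Nos2, Cybb and Sod2 also showed no overlap. The prostacyclin receptor gene Ptgir and Gch1, which makes the cofactor of nitric oxide synthase, fell, with log2 fold changes of -2.28 and -1.19. The 1 member that rose was Ptger4, the prostaglandin E2 receptor EP4, at 1.19. Nos2 and Ptger4 were below the threshold in a fit of the 6 libraries alone. Gch1 (100 µM replicate 1) and Ptger4 (100 µM replicates 1 or 2) dropped below the threshold when a library named in parentheses was left out.

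Genes of the receptors and signalling upstream of these changed in some cases. Of 22 Toll-like receptors and adaptors, 2 fell (9.09%, against 3.77% of all genes) and 0 rose, with a median log2 fold change of 0.06. Cd14, the LPS co-receptor, stood at 1626, 1523 and 1381 CPM in the 100 µM libraries and 719, 626 and 634 in the 1 mM libraries (log2 fold change -1.20 ± 0.19 (SE), adjusted p = 8.2e-05). Tlr13, which senses bacterial ribosomal RNA, stood at 96.1, 81.7 and 84 CPM in the 100 µM libraries and 26.2, 30.8 and 19.8 in the 1 mM libraries (log2 fold change -1.76 ± 0.25 (SE), adjusted p = 1.6e-06). Both were lower in every 1 mM library than in any 100 µM library. Tlr4 and Myd88 did not pass, with log2 fold changes of -0.05 (95% interval -0.63 to 0.54) and 0.14 (-0.47 to 0.74). Among 22 genes of NF-kB and its feedback, 4 fell (18.18%, against 3.77% of all genes) and 2 rose (9.09%, against 1.21%), with a median of -0.14. The 2 that rose, Dusp1 and Zfp36, are also on the list of phosphatases and decay factors. Irak3, a brake on Toll-like receptor signalling that LPS itself raises, stood at 96.7, 103 and 138 CPM in the 100 µM libraries and 30.9, 38.1 and 30.5 in the 1 mM libraries (log2 fold change -1.76 ± 0.21 (SE), adjusted p = 1.3e-08). Nfkbia, which encodes the inhibitor IkB-alpha, stood at 693, 624 and 568 CPM in the 100 µM libraries and 519, 392.5 and 362 in the 1 mM libraries, so that the groups lay close together (log2 fold change -0.57 ± 0.16 (SE), adjusted p = 0.025). Nfkb1 and Tnfaip3 fell, with log2 fold changes of -0.61 and -0.82, and Rela did not pass (-0.29, 95% interval -0.73 to 0.16). Nfkbia, Nfkb1 and Tnfaip3 were below the threshold in a fit of the 6 libraries alone. Nfkbia (1 mM replicates 2 or 3 or 100 µM replicates 1 or 2), Nfkb1 (1 mM replicates 1 or 2 or 100 µM replicates 1 or 3) and Tnfaip3 (1 mM replicates 1 or 2 or 100 µM replicates 1, 2 or 3) dropped below the threshold when a library named in parentheses was left out.

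Some genes that end MAP kinase signalling or destroy cytokine mRNA rose. Of 17 MAP kinase phosphatases and mRNA decay factors, 3 rose (against 1.21% of all genes) and 0 fell, with a median of 0.17. Dusp1, a phosphatase of p38 and JNK (chr17:26505590-26562128, minus strand), stood at 53.2, 74.9 and 66.7 CPM in the 100 µM libraries and 144, 148 and 152 in the 1 mM libraries. Every 1 mM library was above every 100 µM library and above the solvent mean of 94.9 CPM (log2 fold change 1.19 ± 0.19 (SE), adjusted p = 2.4e-05). Dusp2 stood at 21.2, 24.9 and 14.1 CPM in the 100 µM libraries and 55.2, 52.9 and 77.2 in the 1 mM libraries (log2 fold change 1.62 ± 0.28 (SE), adjusted p = 8.5e-05). Zfp36, whose product tristetraprolin marks Tnf mRNA for decay, stood at 101, 68.1 and 74.6 CPM in the 100 µM libraries and 162, 98.5 and 254 in the 1 mM libraries. The spread within 1 mM was wide, and replicate 2 lay just below the highest 100 µM library (log2 fold change 1.08 ± 0.20 (SE), adjusted p = 3.3e-04). Zfp36 was below the threshold in a fit of the 6 libraries alone. Of the 37 interferon-response genes, 4 fell (10.81%, against 3.77% of all genes) and 0 rose (median -0.37). They were Ifi204, Oasl1, Oas1a and Zbp1, between -2.13 and -0.94, and Ifi204 and Oas1a share sequence with close relatives. Irf7 and Isg15 did not pass, with log2 fold changes of -0.79 (95% interval -1.89 to 0.32) and -0.63 (-1.98 to 0.72).

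NRF2 is the transcription factor that switches on enzymes of glutathione, thioredoxin and heme metabolism under oxidative stress. Of 29 tested genes on the NRF2 and antioxidant list, 10 fell from 100 µM to 1 mM (34.48%, against 3.77% of all genes) and 0 rose, with a median log2 fold change of -0.43. Against LPS alone, 100 µM melatonin had 4 members higher and 0 lower, where 0.695% of all genes were higher and 0.624% lower. The 2 comparisons share the 100 µM libraries, so a high 100 µM value enters both. Prdx6, a peroxiredoxin (chr1:161240112-161251219, minus strand), stood at 800.1, 723 and 701 CPM in the 100 µM libraries and 324, 279.7 and 363 in the 1 mM libraries, and at 456, 408 and 434 in those of LPS alone. The 100 µM group was thus the highest of the 3 and the 1 mM group the lowest, with no overlap (log2 fold change -1.20 ± 0.13 (SE), adjusted p = 6.2e-10). Gclm, a subunit of the enzyme that starts glutathione synthesis, stood at 334, 299.9 and 328 CPM in the 100 µM libraries and 155, 136 and 260 in the 1 mM libraries, and averaged 192 with LPS alone (log2 fold change -0.81 ± 0.18 (SE), adjusted p = 0.0032). Slc7a11, the cystine importer that feeds glutathione synthesis, stood at 809.5, 774 and 755 CPM in the 100 µM libraries and 218, 189.8 and 156 in the 1 mM libraries (log2 fold change -2.05 ± 0.19 (SE), adjusted p = 4.2e-11). Hmox1, which breaks down heme, stood at 178, 166 and 142 CPM in the 100 µM libraries and 30.2, 35.2 and 49.3 in the 1 mM libraries. The groups lay far apart, and 1 mM replicate 3 was again the highest of its group (log2 fold change -2.09 ± 0.25 (SE), adjusted p = 2.5e-08). Prdx6, Gclm, Slc7a11 and Hmox1 showed no overlap between 100 µM and 1 mM.

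Txnrd1, which encodes thioredoxin reductase, stood at 1137, 1139 and 1066 CPM in the 100 µM libraries and 590.4, 594 and 369 in the 1 mM libraries (log2 fold change -1.10 ± 0.13 (SE), adjusted p = 5.7e-09). G6pdx, which supplies NADPH, Prdx1, Abcc1, Gsr and Sqstm1 fell, with log2 fold changes of -0.91, -0.76, -0.77, -0.61 and -0.56. Nfe2l2, the gene of NRF2 itself, and Keap1, its inhibitor, did not pass, with log2 fold changes of 0.18 (95% interval -0.16 to 0.52) and 0.03 (-0.59 to 0.65). Srxn1 and Gclc did not pass either, at 0.05 (-0.34 to 0.44) and -0.22 (-0.59 to 0.15). Gclm, Prdx1, Gsr and Sqstm1 were below the threshold in a fit of the 6 libraries alone. Gclm (1 mM replicate 2) and Gsr (1 mM replicates 2 or 3 or 100 µM replicates 1 or 2) dropped below the threshold when a library named in parentheses was left out.

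Promoters of 4 of the 10 members that fell held the antioxidant response element core TGACNNNGC on either strand, and they are shown for comparison with the first set. The capitals mark the matches, in the same RefSeq windows of 250 bases. Those letters occur in 10.2% of all promoters in the table. Promoters of only 6 of the 10 were in the table, so no share was compared. A core for NF-kB was searched for as well. It was found in 5 of these 6 promoters, against 4 with the antioxidant core, and in 15.9% of all promoters. The antioxidant core was thus not the most frequent match in these promoters.
Txnrd1 promoter, chr10:82858956-82859205, plus strand: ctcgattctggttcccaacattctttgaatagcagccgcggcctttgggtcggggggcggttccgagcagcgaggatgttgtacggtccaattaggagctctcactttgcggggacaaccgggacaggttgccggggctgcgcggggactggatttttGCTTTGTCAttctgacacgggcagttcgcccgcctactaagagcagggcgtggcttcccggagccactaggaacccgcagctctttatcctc
G6pdx promoter, chrX:74428881-74429130, minus strand: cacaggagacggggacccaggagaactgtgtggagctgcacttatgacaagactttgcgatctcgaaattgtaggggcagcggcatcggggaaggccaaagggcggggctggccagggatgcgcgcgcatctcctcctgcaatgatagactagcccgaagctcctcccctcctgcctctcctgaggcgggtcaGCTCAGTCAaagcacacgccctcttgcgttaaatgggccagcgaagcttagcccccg
Gclm promoter, chr3:122245307-122245556, plus strand: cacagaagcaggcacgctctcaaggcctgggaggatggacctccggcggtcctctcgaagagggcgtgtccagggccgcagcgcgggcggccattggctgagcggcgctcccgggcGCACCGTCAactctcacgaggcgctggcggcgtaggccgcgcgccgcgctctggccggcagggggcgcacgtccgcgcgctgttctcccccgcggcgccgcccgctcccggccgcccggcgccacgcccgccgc
Prdx1 promoter, chr4:116685349-116685598, plus strand: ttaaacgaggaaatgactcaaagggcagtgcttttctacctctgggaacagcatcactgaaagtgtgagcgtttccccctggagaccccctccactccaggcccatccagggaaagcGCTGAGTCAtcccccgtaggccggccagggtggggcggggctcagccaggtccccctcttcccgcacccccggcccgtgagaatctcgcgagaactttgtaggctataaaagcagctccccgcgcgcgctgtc
No match says only that the letters are not in this window, and a match is not a shown binding site.

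Macrophage identity genes, the surface receptors and effectors by which these cells are recognised, fell in 9 of 22 tested cases (40.91%, against 3.77% of all genes) and rose in 0, with a median log2 fold change of -1.10. Lyz2, which encodes lysozyme and was among the most abundant RNAs of these cells (chr10:117277331-117282321, minus strand), stood at 6640, 6312 and 6452 CPM in the 100 µM libraries and 1470, 1329 and 1366 in the 1 mM libraries. The groups did not overlap and each was tight (log2 fold change -2.22 ± 0.41 (SE), adjusted p = 0.0011), and the solvent mean was 6482 CPM, so that 1 mM lay below the level without LPS. Cd36, a scavenger receptor for oxidised lipids, stood at 529, 455 and 471 CPM in the 100 µM libraries and 96.4, 93.1 and 128 in the 1 mM libraries (log2 fold change -2.20 ± 0.24 (SE), adjusted p = 5.2e-08). Msr1, the class A scavenger receptor, stood at 171, 162 and 151 CPM in the 100 µM libraries and 5.67, 16.6 and 27.7 in the 1 mM libraries, with a wide spread within 1 mM (log2 fold change -3.30 ± 0.62 (SE), adjusted p = 0.0014). Siglec1, a lectin that binds sialic acid, stood at 19.1, 11 and 17.6 CPM in the 100 µM libraries and 0, 0 and 1.6 in the 1 mM libraries, with no count in 2 of the 3 (log2 fold change -5.05 ± 1.03 (SE), adjusted p = 0.002). Mpeg1, a pore-forming protein of phagosomes, stood at 263, 252 and 305 CPM in the 100 µM libraries and 110.5, 94.4 and 122 in the 1 mM libraries (log2 fold change -1.33 ± 0.16 (SE), adjusted p = 3.0e-08). Siglec1 was low in every library and varied within both groups, and in none of these 5 genes did the groups overlap. The naming rule required this of Siglec1 and Msr1. Ptprc and Adgre1 fell, with log2 fold changes of -0.72 and -1.47. Csf1r and Cd68 did not pass, with log2 fold changes of -0.85 (95% interval -1.39 to -0.31) and -0.32 (-0.61 to -0.02), and neither did the lineage factor Spi1 at 0.16 (-0.16 to 0.48). Ptprc and Adgre1 were below the threshold in a fit of the 6 libraries alone. Adgre1 (1 mM replicates 1 or 2 or 100 µM replicates 1 or 3) dropped below the threshold when a library named in parentheses was left out.

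Among 15 genes of Trem2, Tyrobp and Fc receptors, 4 fell (26.67%, against 3.77% of all genes) and 1 rose (6.67%, against 1.21%), with a median of -0.28. Fcer1g, the signalling chain of activating Fc receptors, stood at 849.6, 856 and 975 CPM in the 100 µM libraries and 586, 546 and 638 in the 1 mM libraries (log2 fold change -0.60 ± 0.12 (SE), adjusted p = 5.6e-04). Fcgr2b, the inhibitory receptor, Fcgr1 and Sirpa fell, with log2 fold changes of -0.84, -1.13 and -0.96. Fcgr3, which LPS lowers, stood at 27.5, 19.2 and 20.2 CPM in the 100 µM libraries and 54.5, 45.9 and 36.7 in the 1 mM libraries and so rose (log2 fold change 1.04 ± 0.23 (SE), adjusted p = 0.0019). Fcer1g, Fcgr1 and Fcgr3 were below the threshold in a fit of the 6 libraries alone. Fcgr1 (1 mM replicate 3 or 100 µM replicate 1) dropped below the threshold when a library named in parentheses was left out.

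Many lysosomal genes fell, and none of those tested rose. Of 31 tested, 13 fell (41.94%, against 3.77% of all genes) and 0 rose, with a median log2 fold change of -0.34. Against LPS alone 3 members were higher at 100 µM and 0 lower, again from the same 100 µM libraries. Of all genes, 0.695% were higher and 0.624% lower in that comparison. Npc2, which moves cholesterol out of lysosomes, stood at 382, 354 and 316 CPM in the 100 µM libraries and 208, 148 and 155 in the 1 mM libraries, and averaged 278 with LPS alone (log2 fold change -1.04 ± 0.14 (SE), adjusted p = 6.8e-07). Ctsd, a lysosomal protease, stood at 789, 774 and 810 CPM in the 100 µM libraries and 536, 351 and 356 in the 1 mM libraries (log2 fold change -0.93 ± 0.14 (SE), adjusted p = 6.3e-06). Gpnmb, a glycoprotein of lysosome-rich macrophages, stood at 659, 638 and 659 CPM in the 100 µM libraries and 318, 367 and 307 in the 1 mM libraries (log2 fold change -0.98 ± 0.16 (SE), adjusted p = 2.8e-05). None of these 3 genes overlapped between the groups. The list shares Ctsk, Atp6v0d2 and Mitf, given with the osteoclast genes, which had the largest falls of its 13. Ctsb, Grn and the proton pump subunit Atp6v1a fell, with log2 fold changes of -0.52, -0.53 and -0.48. Lamp1 did not pass (0.19, 95% interval -0.10 to 0.48). Ctsb, Grn and Atp6v1a were below the threshold in a fit of the 6 libraries alone.

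RAW 264.7 cells can form osteoclasts, and several osteoclast genes fell. Of 14 tested, 6 fell (42.86%, against 3.77% of all genes) and 0 rose, with a median of -1.08. Nfatc1, the transcription factor that drives osteoclast formation, stood at 665, 718 and 640.1 CPM in the 100 µM libraries and 149.7, 128 and 98.2 in the 1 mM libraries. With LPS alone it was at 250.1, 271 and 292 CPM, and with 10 µM melatonin and LPS at 451, 456 and 504 CPM. The 100 µM libraries were the highest and the 1 mM libraries the lowest of these groups, with no overlap (log2 fold change -2.43 ± 0.18 (SE), adjusted p = 8.1e-14). At 10 µM, where 71 genes (0.418%) differed from LPS alone, 38 higher (0.224%) and 33 lower (0.194%), and whose libraries do not enter the comparison of 1 mM with 100 µM, Nfatc1 was already higher than with LPS alone (log2 fold change 0.80 ± 0.18, SE, edgeR adjusted p = 0.019). Car2, the carbonic anhydrase that makes acid for bone resorption, stood at 129, 117 and 112 CPM in the 100 µM libraries and 47, 49.2 and 35.9 in the 1 mM libraries, and averaged 55.6 with LPS alone (log2 fold change -1.44 ± 0.26 (SE), adjusted p = 1.4e-04). Ctsk, the collagen-degrading protease of osteoclasts, stood at 2.91, 6.47 and 9.56 CPM in the 100 µM libraries and 0.46, 0 and 0.2 in the 1 mM libraries (log2 fold change -4.74 ± 1.10 (SE), adjusted p = 0.0042). Both Car2 and Ctsk were lower in every 1 mM library than in every 100 µM library. Mmp9, Atp6v0d2 and Mitf fell, with log2 fold changes of -4.40, -3.03 and -1.40. Ctsk and Mmp9 were below the threshold in a fit of the 6 libraries alone. Mmp9 (1 mM replicates 1 or 3 or 100 µM replicates 1, 2 or 3), Atp6v0d2 (any of the 6) and Mitf (1 mM replicates 1 or 2) dropped below the threshold when a library named in parentheses was left out. The call of Mmp9 was lost with no low-count filter.

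**Figure D4:**
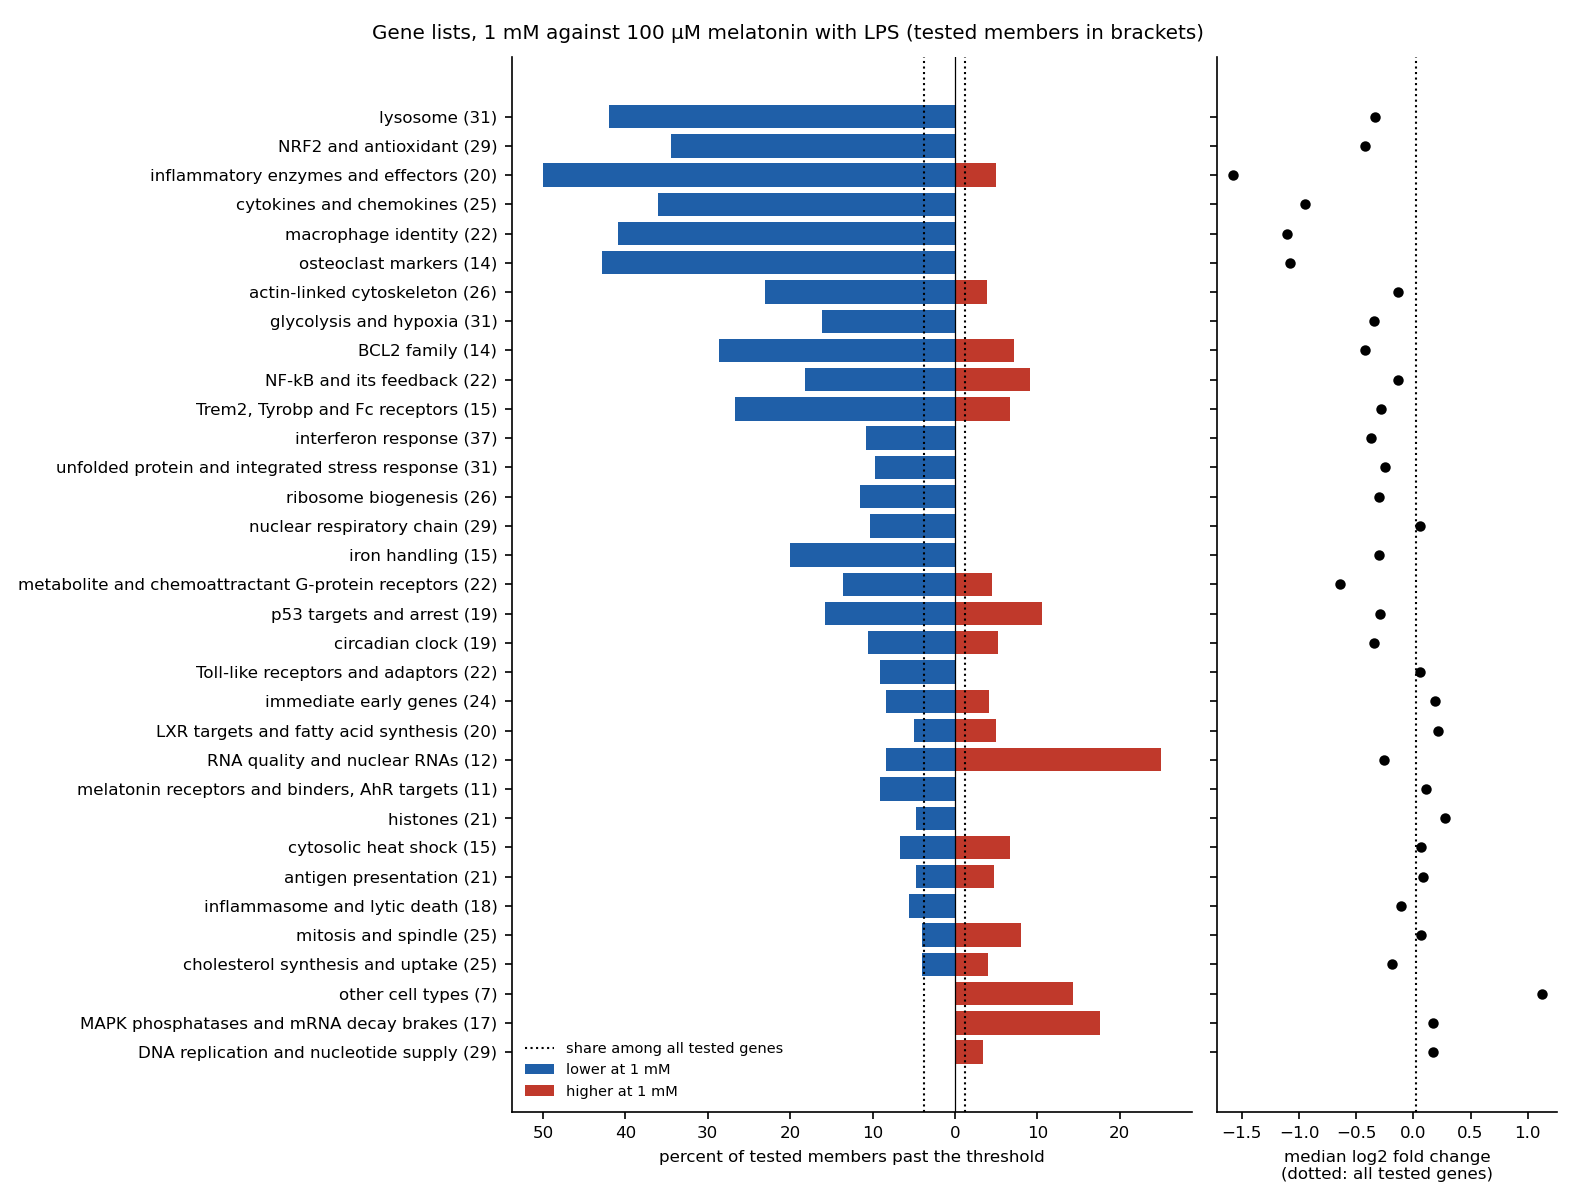
Percent of tested members of each of 33 gene lists that fell (blue, left) or rose (red, right) from 100 µM to 1 mM melatonin with LPS, with dotted lines at the share of all tested genes (3.77% and 1.21%), and the median log2 fold change of each list (right panel, dotted line at the median of all tested genes). Inflammatory enzymes, osteoclast markers, lysosome, macrophage identity, cytokines and the NRF2 list have the largest shares that fell.

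Genes of survival and death moved in both directions. Of 14 BCL2-family genes, 4 fell (28.57%, against 3.77% of all genes) and 1 rose (7.14%, against 1.21%), with a median of -0.43. Those that fell were anti-apoptotic, Mcl1 at a log2 fold change of -0.64 and Bcl2a1a, Bcl2a1b and Bcl2a1d at -1.85, -1.43 and -1.28, the last 3 being near-identical copies between which reads cannot be assigned with certainty. Mcl1 stood at 1135, 1097 and 1047 CPM in the 100 µM libraries and 818, 679 and 602 in the 1 mM libraries. Bcl2l11, which encodes the pro-apoptotic protein BIM, stood at 208, 189 and 199.5 CPM in the 100 µM libraries and 448, 518 and 270.4 in the 1 mM libraries, where replicate 3 was much lower than the other 1 mM libraries (log2 fold change 1.05 ± 0.25 (SE), adjusted p = 0.0087). Pmaip1, which encodes the pro-apoptotic NOXA, stood at 20.9, 15.6 and 19.1 CPM in the 100 µM libraries and 69.1, 45.9 and 71.4 in the 1 mM libraries (log2 fold change 1.74 ± 0.39 (SE), adjusted p = 0.004). It counts among 19 p53 targets, of which 2 rose (10.53%) and 3 fell (15.79%), with a median of -0.29. Cdkn1a, the cell-cycle inhibitor p21, and Mdm2, the ligase that removes p53, fell, with log2 fold changes of -0.64 and -0.85. Of 18 inflammasome and lytic death genes only Gsdmd fell (-0.72), and Nlrp3 did not pass (-0.38, 95% interval -0.77 to 0.01). Mcl1, Cdkn1a, Mdm2 and Gsdmd were below the threshold in a fit of the 6 libraries alone. Bcl2l11 (1 mM replicate 2 or 100 µM replicate 2) and Gsdmd (1 mM replicate 3 or 100 µM replicate 1) dropped below the threshold when a library named in parentheses was left out.

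Few immediate early genes passed. Of 24, 2 fell (8.33%, against 3.77% of all genes) and 1 rose (4.17%, against 1.21%), with a median of 0.19. Egr2, a zinc-finger transcription factor (chr10:67535475-67542188, plus strand), stood at 30.4, 21.6 and 23.2 CPM in the 100 µM libraries and 3.52, 1.87 and 0.798 in the 1 mM libraries. LPS lowers it, from a solvent mean of 79.5 to 13.5 CPM, and the 1 mM libraries were below both (log2 fold change -3.55 ± 0.38 (SE), adjusted p = 8.7e-10). Myc stood at 105, 99.5 and 87.5 CPM in the 100 µM libraries and 21.8, 13.5 and 25.9 in the 1 mM libraries (log2 fold change -2.26 ± 0.32 (SE), adjusted p = 2.1e-06). Fos stood at 56.3, 50.6 and 45.4 CPM in the 100 µM libraries and 85, 97.3 and 97.2 in the 1 mM libraries and rose (log2 fold change 0.88 ± 0.24 (SE), adjusted p = 0.023). Jun was at 105, 110.4 and 129 CPM at 100 µM and 240.1, 287 and 172 at 1 mM and did not pass (1.02, 95% interval 0.29 to 1.75, adjusted p = 0.11). Fos (1 mM replicates 2 or 3 or 100 µM replicates 1, 2 or 3) dropped below the threshold when a library named in parentheses was left out.

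Some genes of glycolysis and of the cytoskeleton fell. Of 31 glycolysis and hypoxia genes, 5 fell (16.13%, against 3.77% of all genes) and 0 rose (median -0.34). Ldha, which makes lactate, stood at 525, 518 and 518 CPM in the 100 µM libraries and 269, 211 and 289.6 in the 1 mM libraries (log2 fold change -1.02 ± 0.16 (SE), adjusted p = 1.0e-05). Slc2a1, the glucose transporter GLUT1, Slc16a3, Eno1 and Tpi1 fell, with log2 fold changes of -0.85, -0.61, -0.71 and -0.78. Pkm and Hif1a did not pass (0.38, 95% interval 0.12 to 0.65, and 0.17, -0.24 to 0.58). Among 26 genes of the actin cytoskeleton 6 fell (23.08%) and 1 rose (3.85%, against 1.21% of all genes), with a median of -0.13. The actin genes Actb and Actg1, which many processed pseudogenes copy, fell: Actb stood at 10020, 9891 and 9881 CPM in the 100 µM libraries and 5578, 5881 and 4863 in the 1 mM libraries (log2 fold change -0.87 ± 0.11 (SE), adjusted p = 2.0e-07). Actg1, Actn1 and Flna fell, with log2 fold changes of -1.19, -1.16 and -0.61. Slc2a1, Slc16a3, Eno1, Tpi1 and Flna were below the threshold in a fit of the 6 libraries alone. Slc16a3 (1 mM replicate 3 or 100 µM replicate 1), Eno1 (1 mM replicate 2) and Tpi1 (1 mM replicate 2 or 100 µM replicate 3) dropped below the threshold when a library named in parentheses was left out.

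The other lists had between 1 and 4 members past the threshold, to be read against 3.77% lower and 1.21% higher among all genes. Of 29 nuclear genes of the respiratory chain 3 fell (median 0.06), of 26 ribosome biogenesis genes 3 fell (-0.30), and of 31 genes of the unfolded protein and integrated stress responses 3 fell (-0.25). The last were Psat1 and Shmt2, enzymes of serine and glycine metabolism, and Slc7a5, an amino acid transporter. Psat1, Shmt2 and Slc7a5 were below the threshold in a fit of the 6 libraries alone. Shmt2 (1 mM replicate 3) and Slc7a5 (1 mM replicates 2 or 3 or 100 µM replicates 1, 2 or 3) dropped below the threshold when a library named in parentheses was left out. The call of Slc7a5 was lost with no low-count filter. The chaperone gene Hspa5 had a log2 fold change of 0.00 (95% interval -0.20 to 0.20) and the stress factor Atf4 -0.32 (-0.61 to -0.03). Heat shock genes had 1 higher and 1 lower of 15, cholesterol synthesis 1 and 1 of 25, LXR targets and fatty acid synthesis 1 and 1 of 20, and antigen presentation 1 and 1 of 21. Lpl, the LXR target that fell, encodes lipoprotein lipase and stood at 1292, 1339 and 1206 CPM in the 100 µM libraries and 535, 491 and 652 in the 1 mM libraries (log2 fold change -1.19 ± 0.23 (SE), adjusted p = 0.0013). Histone genes had 1 of 21 lower, iron handling 3 of 15 lower (20%), of which Hmox1 and Lcn2 are described above, and clock genes 1 higher and 2 lower of 19. Among 22 metabolite and chemoattractant receptors, 3 fell and 1 rose. C5ar1, the receptor for complement fragment C5a, stood at 102, 76.5 and 98.6 CPM in the 100 µM libraries and 16.4, 20.7 and 20.6 in the 1 mM libraries (log2 fold change -2.27 ± 0.51 (SE), adjusted p = 0.007). Of 23 genes of melatonin reception and the aryl hydrocarbon receptor, 11 could be tested, and only Slc2a1 fell.

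The largest increases were mostly at low levels. Malat1, Mki67 and Bcl2l11, which were at higher levels, rose by smaller factors. Of the 15 largest increases among genes of at least 5 CPM at 1 mM and with no overlap between the groups, only Ighm exceeded 100 CPM. Ighm, the constant region of immunoglobulin M (chr12:113418558-113422730, minus strand), stood at 64.9, 58.8 and 58.5 CPM in the 100 µM libraries and 221, 264 and 218 in the 1 mM libraries, and averaged 291 in solvent and 49.8 with LPS alone. The 1 mM libraries were all above 3 times the highest 100 µM library and below the solvent mean (log2 fold change 1.95 ± 0.17 (SE), adjusted p = 2.1e-12). It was the only one of 7 tested genes on a list of other cell types that passed. Rassf5, a Ras effector in leukocyte adhesion, stood at 3.23, 4.1 and 5.16 CPM in the 100 µM libraries and 14.7, 20 and 28.7 in the 1 mM libraries (log2 fold change 2.33 ± 0.42 (SE), adjusted p = 1.4e-04). Cds1, which makes CDP-diacylglycerol, stood at 3.56, 4.73 and 2.73 CPM in the 100 µM libraries and 17, 11.7 and 15.2 in the 1 mM libraries (log2 fold change 1.99 ± 0.42 (SE), adjusted p = 0.0012). Abtb1 stood at 1.94, 3.15 and 0.455 CPM in the 100 µM libraries and 13.3, 13.5 and 9.98 in the 1 mM libraries (log2 fold change 2.72 ± 0.69 (SE), adjusted p = 0.0092), and Arrdc3, an alpha-arrestin, stood at 4.69, 1.42 and 3.34 CPM in the 100 µM libraries and 22.5, 13.5 and 19 in the 1 mM libraries (log2 fold change 2.54 ± 0.68 (SE), adjusted p = 0.015). All 1 mM libraries exceeded all 100 µM libraries in each of these genes, which the rule for the 15 largest increases required. With LPS alone Abtb1 stood at 7.89, 15.6 and 7.09 CPM and Rassf5 at 7.74, 17.6 and 14.65, so both overlapped their 1 mM libraries. Cds1 and Arrdc3 stood at no more than 4.63 CPM with LPS alone, below every 1 mM library. The others of the 15 were Dirc2, Cd276, Nipal3, Iqgap3, Mcm8, Cdc42bpb, Syt11, Mbd4, Tom1l2 and Pmaip1, between 1.74 and 3.25. Among them Dirc2, Cd276, Cdc42bpb, Mbd4 and Tom1l2 also overlapped LPS alone at 1 mM. Cd276, Nipal3, Iqgap3, Mcm8, Syt11 and Mbd4 were below the threshold in a fit of the 6 libraries alone. Abtb1 (100 µM replicate 3), Arrdc3 (100 µM replicates 2 or 3), Dirc2 (1 mM replicates 1 or 2 or 100 µM replicates 1, 2 or 3), Cd276 (100 µM replicates 2 or 3), Nipal3 (1 mM replicates 2 or 3 or 100 µM replicates 1, 2 or 3), Iqgap3 (100 µM replicate 1), Mcm8 (1 mM replicate 2 or 100 µM replicates 1 or 2), Cdc42bpb (1 mM replicate 3 or 100 µM replicates 1 or 3), Syt11 (100 µM replicates 1 or 2), Mbd4 (1 mM replicate 2 or 100 µM replicates 1, 2 or 3) and Tom1l2 (any of the 6) dropped below the threshold when a library named in parentheses was left out. The call of Mbd4 was lost with no low-count filter and with the replicate block.

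Few proliferation genes passed the threshold. Of 25 mitosis genes 2 rose (8%, against 1.21% of all genes) and 1 fell (4%, against 3.77%), with a median of 0.07. Of 29 DNA replication genes 1 rose (3.45%) and 0 fell, with a median of 0.17. Mki67, a marker of cycling cells, stood at 329.9, 310.3 and 301 CPM in the 100 µM libraries and 519, 554 and 391.7 in the 1 mM libraries (log2 fold change 0.64 ± 0.12 (SE), adjusted p = 4.8e-04), against a solvent mean of 2259 CPM and 328 with LPS alone. Top2a and Ccnb1 did not pass (-0.06, 95% interval -0.36 to 0.23, and 0.06, -0.78 to 0.91). Incenp fell, with a log2 fold change of -0.88. Mki67 and Incenp were below the threshold in a fit of the 6 libraries alone. The list of RNA quality and nuclear RNAs had 3 of 12 higher and 1 lower. Malat1, a nuclear long noncoding RNA, stood at 1713, 2074 and 1983 CPM in the 100 µM libraries and 3772, 4755 and 2773 in the 1 mM libraries (log2 fold change 0.97 ± 0.12 (SE), adjusted p = 1.2e-07). The synthetase gene Lars2 stood at 1267, 1346 and 1442 CPM in the 100 µM libraries and 4830, 4361 and 1424 in the 1 mM libraries, so that replicate 3 of 1 mM lay among the 100 µM libraries. Ribosomal RNA took 0.425% to 0.727% of counts at 1 mM and 0.205% to 0.297% at 100 µM. The part of these RNA differences in the other results was not tested.

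Whether a gene moved mainly between 100 µM and 1 mM was tested as the difference between that step and the whole range below it, from LPS alone to 100 µM. This difference passed for 260 genes (1.53%), 63 higher (0.371%) and 197 lower (1.16%). Of them 221 were also called from 100 µM to 1 mM in the same direction, 49 higher and 172 lower. The 100 µM libraries enter both terms with the same sign, so a 100 µM value that happens to be high adds to both. The test also passes for a gene that is highest or lowest at 100 µM and returns at 1 mM. Car2, for one, had log2 fold changes of 1.10 from LPS alone to 100 µM and -1.44 from there to 1 mM. Its value for 1 mM against LPS alone was -0.33 (edgeR adjusted p = 0.52). Without 100 µM replicate 1 the counts dropped to 16 higher and 59 lower, and without replicate 2 to 23 and 74. They were 30 and 111 without replicate 3, and 38 and 126 without LPS replicate 2. Without 1 mM replicate 1, 336 were lower. The NRF2 list had the most members among the 221 genes, with 7 of 29 lower (Prdx6, G6pdx, Slc7a11, Gclm, Prdx1, Txnrd1 and Hmox1). The lysosome list followed with 5 of 31. Against LPS alone, 4 members of the NRF2 list were higher at 100 µM, so part of these falls followed a rise.

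Clec4e, Cd36 and Nfatc1 passed this test, Nfatc1 after a rise at 100 µM. Clec4e had a log2 fold change of -0.15 ± 0.16 (SE) from LPS alone to 100 µM (adjusted p = 0.78) beside -2.82 from 100 µM to 1 mM, and the test of the difference gave an adjusted p of 3.5e-10 by edgeR. Cd36 had 0.10 beside -2.20 (difference, adjusted p = 4.2e-04), and Tlr13 0.06 beside -1.76 (adjusted p = 0.0077). Nfatc1 and Egr2 had 1.31 and 0.89 below 100 µM, of which the first passed (adjusted p = 6.9e-06) and the second did not (0.17). Pkn3, a protein kinase related to protein kinase C, stood at 18.1, 20.8 and 19.4 CPM in the 100 µM libraries and 1.53, 0.863 and 0.599 in the 1 mM libraries, and averaged 9.59 with LPS alone (difference of the steps -5.26 ± 1.16, SE, edgeR adjusted p = 0.0067). On the other side, Ighm rose mainly at 1 mM (edgeR adjusted p = 4.8e-04). Rassf5 also passed (edgeR adjusted p = 0.0011), but stood at 7.74, 17.6 and 14.65 CPM with LPS alone. Every 100 µM library of Rassf5 was below those of LPS alone, and its 1 mM libraries overlapped them.

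For most inflammatory genes the difference between the steps did not pass. None of the 25 cytokine and chemokine genes and only Saa3 and Sod2 of the 20 enzymes and effectors were called. Ptgs2 had a log2 fold change of -1.77 from LPS alone to 100 µM and -3.12 from there to 1 mM (difference -1.35, 95% interval -2.83 to 0.14). Csf3 had -1.96 and -3.60 (difference -1.65, -2.72 to -0.57), and Il1b -2.69 and -2.97 (difference -0.28, -2.39 to 1.82). A p that misses the threshold does not show that the steps were equal. Saa3 had already fallen below LPS alone at 100 µM (-1.27, adjusted p = 7.7e-05), and its further fall was larger still (difference -2.90, edgeR adjusted p = 1.3e-07).

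In cells without LPS, the same rise in dose changed fewer genes, and that count depended on 1 library. Between melatonin alone at 100 µM and at 1 mM, 49 genes passed (0.288%), 17 higher (0.1%) and 32 lower (0.188%). Without the library labelled 1 mM replicate 3, which stood apart from its group, 99 genes rose and 263 fell. The number of genes that both changed with LPS and changed without it was 18 of 845 (2.13%) and of 49 (36.73%), 8 of them lower in both, 1 higher in both and 9 in opposite directions. Of those in opposite directions, 8 rose with LPS and fell without it. These 8 were the predicted genes in satellite-like repeats given under other observations, whose reads did not follow the dose. Leaving out both libraries in doubt, 478 genes passed without LPS. Of these, 129 were among the 845 called with LPS from all libraries, 102 of them lower in both and 12 higher in both.

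The difference between the 2 steps, with and without LPS, passed for 177 genes (1.04%), 52 higher (0.306%) and 125 lower (0.736%). Saa3 had a log2 fold change of -4.17 with LPS and 0.80 without it (difference -4.96 ± 0.35, SE, edgeR adjusted p = 1.0e-14). Cox6a2, the muscle form of a cytochrome oxidase subunit, had -4.92 and 1.45, at a low level of 12, 8.99 and 7.43 CPM at 100 µM and 0, 0 and 0.998 at 1 mM with LPS (adjusted p of the difference = 0.0076). Ptgs2 had -3.12 and 1.42 (adjusted p of the difference = 4.2e-04), and Egr2 -3.55 and 0.83 (4.0e-09). Prdx6, Sod2, Irak3, Actg1 and Ccl3 fell with LPS and had values between 0.09 and 0.33 without it, none of them past the threshold, and the difference passed for each of the 5. Ighm and Dusp1 rose with LPS and had 0.29 and -0.10 without it (adjusted p of the difference = 2.2e-06 and 0.0048). All of these differences also passed without the libraries in doubt. With those 2 libraries left out, Ptgs2 and Egr2 rose in cells without LPS, with log2 fold changes of 1.90 and 1.19 (edgeR adjusted p = 0.017 and 0.0049), which neither did with all libraries. The difference for Cox6a2 did not pass in a fit of the compared libraries alone.

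Myc fell in both settings, with log2 fold changes of -2.26 with LPS and -3.37 without it (difference 1.11, 95% interval -0.25 to 2.48). Slc7a11 and Mpeg1 also fell in both, at -2.05 and -1.33 with LPS and -0.99 and -0.78 without it. For Lyz2, Il1rn and Msr1 the value without LPS depended on the library in doubt: it was -0.86, -1.37 and -0.46 with all libraries and -1.84, -2.79 and -2.18 without the 2 in doubt, where all 3 genes passed (edgeR adjusted p = 4.0e-27, 4.4e-04 and 0.018). Pkn3 went from -0.39 to -4.64. Without the libraries in doubt the difference with and without LPS had adjusted p-values of 0.9, 0.49 and 0.97 for Il1rn, Msr1 and Pkn3. For Lyz2 it was -0.38 (adjusted p = 0.019), against -1.36 (0.29) with all libraries.

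**Figure D5:**
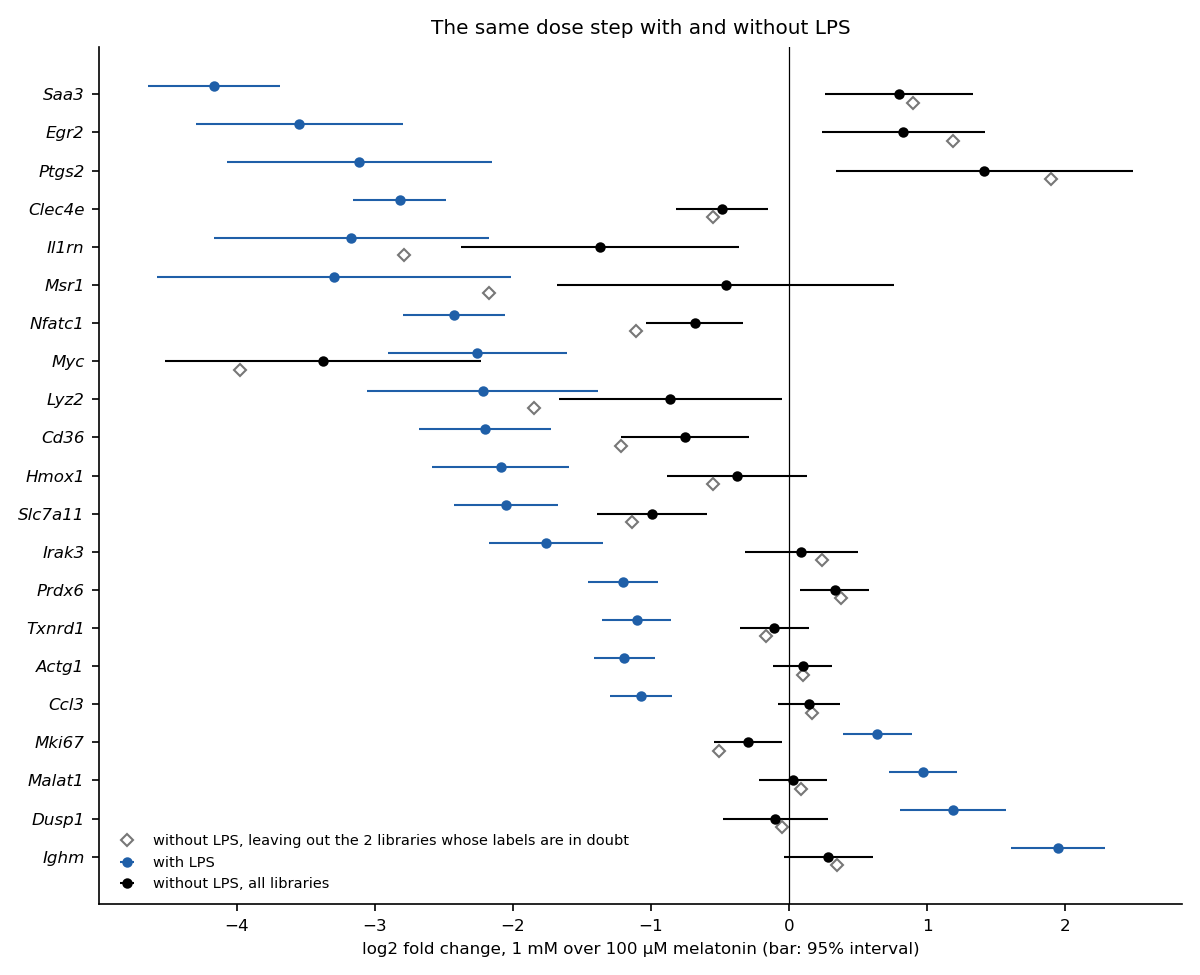
Log2 fold change of 1 mM over 100 µM melatonin for 21 genes, with LPS (blue) and without LPS (black), with 95% intervals, and without LPS after leaving out the libraries whose labels are in doubt (open diamonds, no interval drawn). Saa3, Ptgs2 and Egr2 lie on opposite sides of 0 with and without LPS, and the diamonds of Il1rn, Lyz2 and Msr1 lie further left than their black points.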

How the data were processed

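Gene counts of 36 libraries, deposited by the authors as whole-number read counts per gene, were analysed. Per the submitters' processing notes, cutadapt, featureCounts and mm10 were used; versions, strandedness and annotation release are not given in the sources used here. The FPKM values deposited by the authors were used only for gene symbols and biotypes. Of 53465 gene identifiers, 53274 matched GENCODE M21, which gave coordinates. Library totals ran from 4203313 to 7590271 counts. Mitochondrially encoded genes were not analysed here.

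Genes were filtered by filterByExpr (16988 kept) and tested with edgeR 4.0.16 (quasi-likelihood, TMM, 1 mean per group over all 36 libraries; limma 3.58.1, R 4.3.3) with Benjamini-Hochberg adjustment and a threshold of 0.05. Log2 CPM used a prior count of 2. Alternatives were RLE scaling, DESeq2 1.42.0, no filter, the replicate number as a block, the compared libraries alone, each library left out, and leaving out the 2 libraries in doubt.

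The naming rule took the 15 highest and 15 lowest that passed, reached 5 CPM and did not overlap. It also took the 5 most significant members of each list and inflammatory genes always named. For the differences between steps it took the 5 highest and 5 lowest. Some genes that met the rule are not described. Of the 15 lowest these were Tmem132a, Slc28a2, Rps6kl1 and Ccr1, with log2 fold changes of -5.01, -3.60, -3.52 and -3.15. Each of them lost its call in some alternatives. For the top step against the lower range they were Rps6kl1, Csf2rb2, Ahcyl2, H2-Q4 and Itgb5. Members outside this rule, those that did not pass included, were chosen after their values were seen. The members and the 33 lists were chosen with earlier results of these data known, and the comparison of 10 µM with LPS alone was added after seeing the data. Promoter sequences came from RefSeq (GRCm38.p6).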

Additional observations from a re-analysis of the deposited data

Results flagged for a closer look

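The change from 100 µM to 1 mM melatonin differed with and without LPS, by the test of the difference itself, for 177 genes. The 5 genes with the highest differences (log2 fold change with LPS minus that without) among genes that met the naming rule were Crkl at 2.92, Med12 at 2.81, Iqgap3 at 2.48, Wee1 at 2.24 and Rassf5 at 2.18. Crkl and Med12 did not pass for the step with LPS alone (edgeR adjusted p = 0.07 for each). The 5 lowest were Cox6a2 at -6.37, Nexn at -5.76, Saa3 at -4.96, Ptgs2 at -4.53 and Egr2 at -4.37. Cox6a2, Nexn, Med12, Wee1 and Iqgap3 were below 20 CPM in the 6 libraries with LPS, so counting error is large for them. The step without LPS rests in part on the library labelled 1 mM replicate 3, whose label is in doubt; without both libraries in doubt 131 genes had a higher and 206 a lower difference. Leaving them out, the difference was 2.73 for Med12 (edgeR adjusted p = 0.051), 2.05 for Rassf5 (0.058) and -4.55 for Nexn (0.13), which no longer passed. It still passed for Crkl at 3.22, Iqgap3 at 2.79, Wee1 at 2.27, Cox6a2 at -5.66, Saa3 at -5.07, Ptgs2 at -5.02 and Egr2 at -4.73. From the compared libraries alone, Crkl, Med12, Wee1, Rassf5, Cox6a2 and Nexn did not pass, and Nexn did not with the replicate block. Leaving out single libraries ended the calls of Med12, Iqgap3, Wee1, Rassf5 and Nexn. With LPS these were 1 mM replicate 2 and 100 µM replicates 1 and 2 for Med12, 1 mM replicate 2 and 100 µM replicates 1 and 3 for Iqgap3, 1 mM replicate 3 and 100 µM replicates 1 and 2 for Wee1, 1 mM replicates 2 and 3 and 100 µM replicates 1 and 2 for Rassf5, and all but 1 mM replicate 1 for Nexn. Without LPS they were 1 mM replicates 2 and 3 and 100 µM replicates 1 and 3 for Med12, 1 mM replicates 1 and 2 and each 100 µM library for Iqgap3, 1 mM replicate 2 and 100 µM replicate 1 for Wee1, 1 mM replicates 1 and 3 and 100 µM replicates 1 and 3 for Rassf5, and 1 mM replicate 3 and each 100 µM library for Nexn.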

How the results depend on the processing

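Counts are given as higher and lower. From 100 µM to 1 mM with LPS (205 and 640), DESeq2 gave 307 and 761, the 6 libraries alone 63 and 202, and leaving out 1 library 84 to 210 and 364 to 719. The step without LPS (17 and 32) became 38 and 56 in DESeq2, 139 and 339 without the 2 libraries in doubt, 0 and 3 in a fit of its own libraries, 58 lower with no filter, and 2 to 99 and 14 to 263 with 1 library left out. The difference of these steps (52 and 125) became 106 and 289 in DESeq2, 131 and 206 without the libraries in doubt, 22 and 30 from the compared libraries, and 30 to 88 and 56 to 310. The top step against the lower range (63 and 197) became 112 and 320, 105 and 358, 26 and 89, and 16 to 85 and 59 to 336 under the same 4 changes. For 100 µM against LPS alone (118 and 106) they gave 190 and 186, 194 and 183, 295 and 375, and 49 to 77 and 38 to 70. For 1 mM against LPS alone (488 and 819) the compared libraries gave 159 and 412, and 1 library left out 352 to 440 and 595 to 748. In DESeq2 the steps below had 4 and 2 (10 to 100 µM), 5 and 10 (1 to 10 µM) and 26 and 6 (0.1 to 1 µM). List members that passed (22 and 110) were 36 and 110 in DESeq2, 11 and 61 in the 6 libraries, and 13 to 21 and 81 to 108 with 1 left out. The cause of these changes was not tested, beyond that fits of fewer libraries have fewer residual degrees of freedom. Over all alternatives of the named and list genes, 1820 values kept their call, 372 dropped below the threshold, 3 passed newly and 0 changed sign.

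With the replicate number as a block, the step with LPS had 199 and 626, the step without LPS 15 and 31, their difference 54 and 119, the top step against the lower range 62 and 192, and the step from 1 to 10 µM 0 and 4. The deviations of same-numbered libraries correlated at 0.026, 0.029 and 0.034, all under 0.1. Such values cannot show whether same-numbered libraries share a culture or a batch. Each correlation was above the highest value of differently numbered libraries (-0.0044). The 3 deviations of a group depend on one another, so this is at most a hint from the data and not from the design. Genes under about 1 CPM are limited by depth, since 3 counts correspond to 0.432 to 0.599 CPM in these libraries.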

Other observations

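Reads of 8 predicted genes in satellite-like repeats (Gm10800, Gm10801, Gm10717, Gm10719, Gm10722, Gm11168, Gm21738 and Gm26870, chosen after their values were seen) differed between groups without following the dose. Their summed level was 172 to 189 CPM in the LPS libraries with 100 µM melatonin and 746, 879 and 1250 CPM in those with 1 mM. With LPS alone it was 462 to 469 CPM, with 10 µM 277 to 315 CPM, and with 1 µM 1439 to 1606 CPM. Without LPS, the libraries labelled 100 µM had 3277 to 3491 CPM and those labelled 1 mM had 80.3, 60.7 and 334 CPM.

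Lars2 was at 5453 to 8259 CPM with LPS alone and at 768 to 796 CPM with LPS and 1 µM melatonin, both outside the range of the 100 µM libraries.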
